A study of Mus musculus with 6 samples.

Results

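The subcortical maternal complex is an assembly of proteins that the oocyte makes and that lies beneath the plasma membrane of the egg and of the early embryo. Its genes were followed here in RNA-seq libraries of mouse blastocysts. They were taken by symbol as the 8 rows Khdc3, Ooep, Nlrp5, Tle6, Padi6, Nlrp2, Nlrp4f and Zbed3 of a count table with 49993 genes, whatever their counts. The in vitro group (n = 3 libraries) came from zygotes taken from the oviducts 19 to 21 h after human chorionic gonadotrophin (hCG) and cultured to blastocysts in KSOM, a potassium-enriched embryo medium, at 37 °C under 5% CO2. The in vivo group (n = 3 libraries) came from blastocysts flushed from the uterus on day 3.5. All mothers were superovulated with pregnant mare serum gonadotrophin (10 IU) and then with hCG (10 IU, after 48 h), and mated naturally. Strain, maternal age, embryo sex and the age of the cultured embryos at freezing are not stated in the labels.

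Maternal effect genes act in the embryo through products laid down in the egg. In the mouse, most maternal transcripts are destroyed around the 2-cell stage, when the embryo's own genome becomes active, whereas proteins of the subcortical complex persist for longer. The complex keeps cytoplasmic lattices, organelle positions and the actin cytoskeleton of the egg in order, and mouse embryos without its main proteins arrest early. Khdc3, also called Filia, is in addition made by pluripotent mouse cells, where it takes part in the care of genome stability. The series as a whole was made to look for genes behind telomere shortening in cultured embryos.

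The labels of each library name a single inner cell mass, the tissue blastocysts and the cell type embryonic stem cell, and the libraries differed much within a group. The Spearman correlation of log2 CPM (read counts relative to library size) across genes was 0.942 between in vivo replicates 1 and 2, but 0.786 and 0.793 between these and in vivo replicate 3. Totals were 6918288 to 12735551 counts per in vitro library and 9174789 to 17643429 counts per in vivo library. CPM are given on library totals corrected by TMM factors (the trimmed mean of M values). Summed over 12 markers each, the epiblast list held 733 to 1470 CPM in vitro and 879.7 to 1187 CPM in vivo, and the trophectoderm list held 1285 to 2473 CPM in vitro and 933 to 1532 CPM in vivo. Transcripts of the outer blastocyst layer were thus present in libraries labelled as inner cell mass. In bulk samples, fewer cells of a type and less RNA per cell cannot be told apart. The labels do not say whether the embryos of a group had different mothers, so p-values measure only the spread between these samples, which may be technical.

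Of the 8 genes, Khdc3 was abundant, Ooep was moderate, and the other 6 had few or no counts. Khdc3, Ooep, Tle6 and Zbed3 had counts in all 6 libraries, as did 12358 genes of the table (24.7%). Nlrp4f and Padi6 had counts in 4 libraries and Nlrp5 in 3. Nlrp2 had 0 counts in each library, as did 22111 genes of the table (44.2%). Of all counts on the 8 genes, Khdc3 took 92.7%, 95.6% and 88.3% in in vitro replicates 1 to 3, and 95.8%, 96.2% and 94.1% in in vivo replicates 1 to 3. A sum over the 8 genes is therefore mostly a measure of Khdc3. That sum was 612 ± 283 CPM in vitro and 983 ± 348 CPM in vivo (SD, n = 3 each), with overlapping groups. Without Khdc3 it was 40.9 ± 5.08 CPM in vitro and 42.9 ± 7.65 CPM in vivo.

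**Figure D1:**
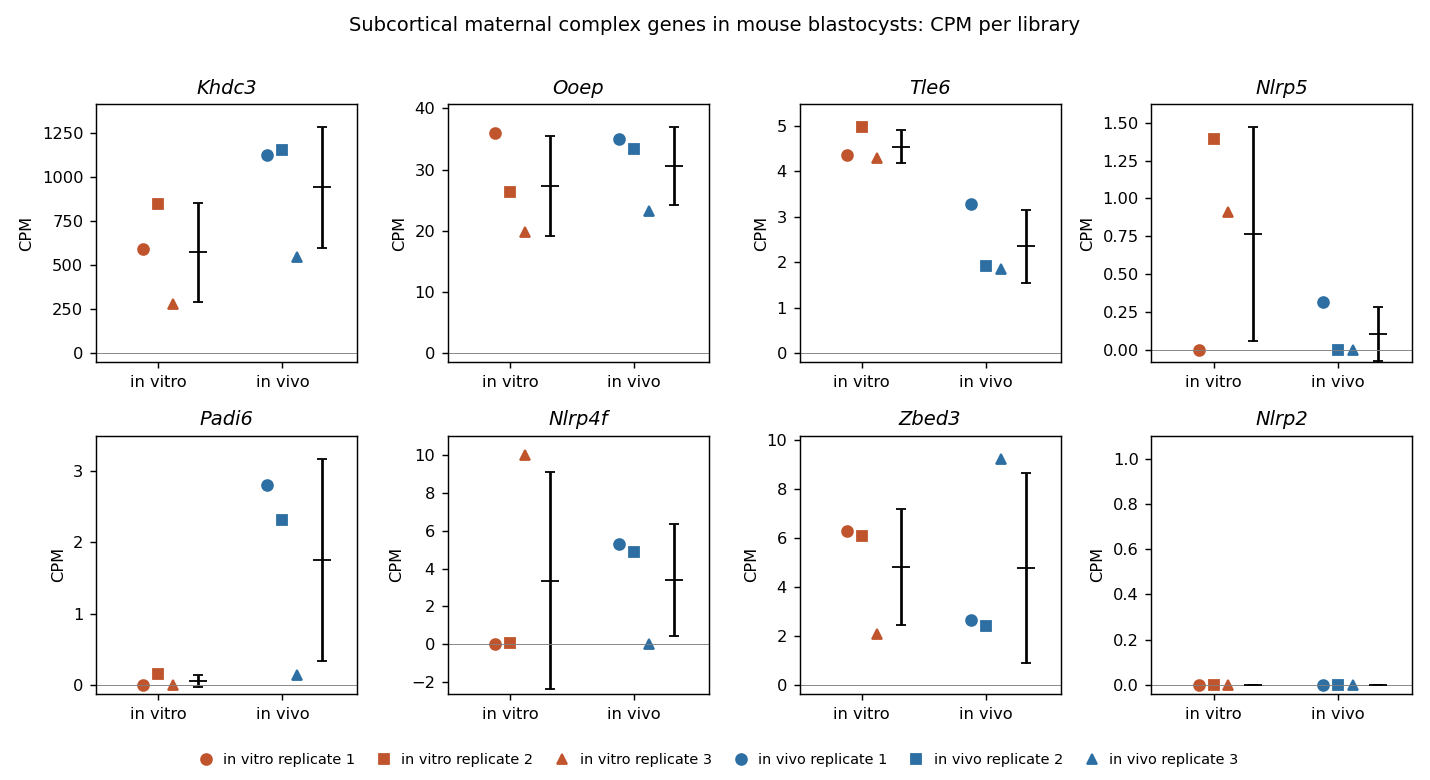
Expression of the 8 genes in each library, as CPM on TMM-scaled totals on a linear axis that differs between panels; points are libraries, and black bars show the mean ± SD of 3 libraries, drawn below 0 where the SD exceeds the mean. Khdc3 spans 279.9 to 1151 CPM, Tle6 alone shows no overlap between the groups, and Nlrp2 is at 0 in each library.

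Short stretches of the promoters are shown because an E-box (CANNTG, a pattern that matches the same places on both strands) is the site bound by FIGLA, a transcription factor that in mouse oocytes switches on zona pellucida genes. In each stretch of 30 bases the E-box nearest upstream of the transcript start is in capitals, read 5′ to 3′ on the gene's strand from RefSeq promoters of GRCm38.p6. Where the promoter table lists several starts for a gene, the one farthest upstream among them was used.
Khdc3: aggtttgggatcCAATTGgaaggacttgag
Ooep: acccagcctaccCACTTGcgcggtgcgcgc
Tle6: gagtccggggccCACGTGcaccgtggcctg
Nlrp5: cagtactgggcgCAGCTGttcccagtctac
Padi6: ctcctccaggctCACCTGtgaacccttaac
Nlrp4f: gtgtgtgcccttCATTTGtcttcccttttt
Zbed3: aaatgaaaggcaCACCTGtgagggattttt
The stretches lie at chr9:73102375-73102404 (plus strand) for Khdc3, chr9:78378649-78378678 (minus) for Ooep, chr10:81601002-81601031 (minus) for Tle6, and chr7:23385770-23385799 (plus) for Nlrp5. Those of Padi6, Nlrp4f and Zbed3 lie at chr4:140742704-140742733 (minus), chr13:65205832-65205861 (minus) and chr13:95323420-95323449 (plus). The E-box starts 11 bases before the start of Khdc3 and 78 bases before that of Ooep. All 8 genes matched the RefSeq table, and 7 held an E-box in the 250 bases before the start, as did 66.2% of 32851 promoters. Nlrp2 held none in this window, while Nlrp5 and Padi6, which had few counts, held 2 each. Figla, the gene of FIGLA, had 0 counts in each library. A part of the E-boxes in the levels was not tested. There were 5 E-boxes before Khdc3 and 1 each before Ooep and Nlrp4f. The starts used for Khdc3 and Tle6, and the stretches shown for them, lie inside the spans of their rows in the count table.

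Khdc3 encodes a KH-domain protein of the complex and lies on the plus strand of chromosome 9 at 73101381 to 73106631 of GRCm38. Khdc3 had 591, 843 and 279.9 CPM in in vitro replicates 1 to 3, against 1123, 1151 and 546 CPM in in vivo replicates 1 to 3, from 2150 to 14418 counts per library. By its mean over the 6 libraries, 756 CPM, it ranked at 55 among 49993 genes. The 2 highest values were those of in vivo replicates 1 and 2, and the groups overlapped because in vivo replicate 3 lay below in vitro replicates 1 and 2. In vitro relative to in vivo, its log2 fold change came to −0.72 ± 0.45 (SE) with a 95% interval of −1.74 to 0.30. With edgeR's quasi-likelihood test and Benjamini-Hochberg adjustment across 14301 genes, Khdc3 had an adjusted p of 0.625 and so did not pass. The interval includes no difference and also a level 0.30 times that in vivo.

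The estimate for Khdc3 depended on single libraries. Its log2 fold change was −0.99 ± 0.44 (SE) when in vivo replicate 3 was left out and −1.12 ± 0.49 when in vitro replicate 2 was, but −0.39 ± 0.41 when in vitro replicate 3 was. None of these passed edgeR's test (adjusted p from 0.365 to 0.817, and at most 0.947 whichever of the 6 was omitted). Without in vivo replicate 3, all in vitro values lay below the 2 remaining in vivo values. Counting error was small beside this spread: a count of Khdc3 carried an error of 0.833% to 2.16%, whereas the coefficient of variation between libraries was 49.4% in vitro and 36.3% in vivo. Its share of all counts was 0.0488%, 0.0905% and 0.0233% in in vitro replicates 1 to 3, and 0.157%, 0.141% and 0.0432% in in vivo replicates 1 to 3. The lowest of these had a 95% Wilson interval of 0.0224% to 0.0243%, which covers counting error only. The GENCODE gene model Gm20509 lies on the same strand and shares 361 bases of transcript with Khdc3 at 98.3% identity, and it was not counted apart from Khdc3 here.

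Ooep, also called Floped, encodes another KH-domain protein, which in the mouse is needed for the complex to assemble. The gene occupies 78376903 to 78378588 on chromosome 9 (minus strand). Ooep had 36.0, 26.3 and 19.8 CPM in in vitro replicates 1 to 3, against 35.1, 33.4 and 23.3 CPM in in vivo replicates 1 to 3, from 152 to 449 counts per library. The highest value was that of in vitro replicate 1, and the groups overlapped over most of their range. Ooep had a log2 fold change of −0.16 ± 0.41 (SE), with a 95% interval of −1.09 to 0.77, and did not pass (adjusted p = 0.929, edgeR). Its counts carried an error of 4.72% to 8.11%, against a coefficient of variation of 29.8% in vitro and 20.9% in vivo. Of the 5 tested genes it varied least over all libraries, with a range of 0.86 on the log2 CPM scale against 2.04 for Khdc3.

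The ratio of Khdc3 to Ooep counts needs no scaling of the libraries. It was 16.4, 32 and 14.1 in in vitro replicates 1 to 3, and 32.02, 34.5 and 23.5 in in vivo replicates 1 to 3. In vitro replicate 2 had the ratio of in vivo replicate 1, while the other two in vitro libraries lay below each in vivo library. The mean ratio was 20.8 ± 9.72 in vitro and 29.997 ± 5.78 in vivo (SD, n = 3 each), so the difference between the means was smaller than the larger SD.

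Tle6 encodes a member of the Groucho family of co-repressors that joins the complex in eggs and, in the mouse, acts there on actin through cofilin. Tle6 occupies 81590904 to 81601185 on chromosome 10 (minus strand). It had 4.37, 4.98 and 4.30 CPM in in vitro replicates 1 to 3, against 3.28, 1.92 and 1.86 CPM in in vivo replicates 1 to 3. Each in vitro library lay above each in vivo library. The log2 fold change of Tle6 was 0.95 ± 0.96 (SE), with a 95% interval of −1.20 to 3.10, and it did not pass (adjusted p = 0.783, edgeR). These levels rested on 24 to 68 counts per library, with a counting error of 12.1% to 20.4%. With libraries scaled by their totals alone, Tle6 was at 3.61, 5.34 and 3.58 CPM in vitro and 4.58, 2.34 and 1.47 CPM in vivo, and the groups overlapped. On the other strand, Gm32024 overlaps an exon of Tle6 by 351 bases. Without strand its reads cannot be told from those of Tle6, but it had 2 counts in in vitro replicate 2 and 0 in the other libraries.

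Nlrp5, also called Mater, encodes an NLR-family protein without which mouse embryos arrest at the 2-cell stage. The gene lies on the plus strand of chromosome 7 at 23385889 to 23441923. Nlrp5 had 0, 19 and 7 counts in in vitro replicates 1 to 3, against 4, 0 and 0 counts in in vivo replicates 1 to 3. All counts thus came from 3 libraries, and the groups overlapped at 0. The pooled 26 counts in vitro and 4 counts in vivo gave a ratio of 9.44, in vitro over in vivo, with an exact 95% counting interval of 3.27 to 37.2 that does not include the spread between libraries. Nlrp5 fell below the filter on low counts. Without that filter, its log2 fold change, in vitro over in vivo, was 2.75 ± 2.58 (SE) and did not pass (adjusted p = 0.653, edgeR), and DESeq2 gave 2.90 ± 2.84 with no adjusted p. A transcript of the pseudogene Nlrp5-ps matches it over 1025 bases at 97.1% identity, so the counting could split reads between them. That pseudogene had 0 counts in each in vitro library and 6, 0 and 29 counts in in vivo replicates 1 to 3.

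Padi6 encodes an arginine deiminase relative that in mouse eggs is needed for cytoplasmic lattices, the fibrous stores in which parts of the complex are held. Padi6 occupies 140727355 to 140742643 on chromosome 4 (minus strand). It had 0, 2 and 0 counts in in vitro replicates 1 to 3, against 36, 29 and 2 counts in in vivo replicates 1 to 3. In vivo replicates 1 and 2 stood apart, at 2.81 and 2.31 CPM, while in vivo replicate 3 (0.143 CPM) and in vitro replicate 2 (0.146 CPM) were at one level. The pooled 2 counts in vitro and 67 counts in vivo gave a ratio of 23.1, in vivo over in vitro, with an exact 95% counting interval of 6.14 to 194. This interval covers counting error only.

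With all 6 libraries Padi6 fell below the filter on low counts. When 1 library was left out, the filter kept it in 4 of the 6 fits, with log2 fold changes, in vitro over in vivo, of −7.23 to −4.18. It passed in none of them, and the smallest adjusted p was 0.280, without in vivo replicate 3 (edgeR). DESeq2, which tested it with all libraries, gave −4.79 ± 2.08 (SE) and an adjusted p of 0.201. The row of Padi6 adds 16 exons on an alternate scaffold to the 16 on chromosome 4. Whether reads that match both copies were counted is not stated in the labels or notes, so its level may be too low in every library.

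The remaining NLR genes gave little signal. Nlrp2, a maternal effect gene of the mouse on chromosome 7 (5298547 to 5351035, minus strand), had 0 counts in each library. A count of 0 allows up to 3 counts, which is 0.525, 0.220 and 0.391 CPM in in vitro replicates 1 to 3, and 0.234, 0.239 and 0.215 CPM in in vivo replicates 1 to 3. Nlrp4f, whose protein joins the complex in mouse eggs, occupies 65177111 to 65205716 on chromosome 13 (minus strand). It had 0, 1 and 77 counts in in vitro replicates 1 to 3, against 68, 61 and 0 counts in in vivo replicates 1 to 3. Each group thus held libraries with over 60 counts and libraries with at most 1.

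Nlrp4f averaged 3.37 ± 5.77 CPM in vitro and 3.39 ± 2.95 CPM in vivo (SD, n = 3 each). Its log2 fold change was −0.012 ± 2.04 (SE), with a 95% interval of −4.62 to 4.60, and did not pass (adjusted p = 0.999, edgeR). Without in vitro replicate 3, the single in vitro library with more than 1 count, the log2 fold change was −5.90 ± 2.70 (adjusted p = 0.583). At this spread no difference in Nlrp4f between the groups was detectable.

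Zbed3, a BED-type zinc finger gene whose protein was found with the complex in mouse eggs and early embryos, lies on the plus strand of chromosome 13 at 95323605 to 95337842. It had 6.30, 6.07 and 2.08 CPM in in vitro replicates 1 to 3, against 2.66, 2.39 and 9.24 CPM in in vivo replicates 1 to 3. In vivo replicate 3 was the highest library and in vitro replicate 3 the lowest. Zbed3 had a log2 fold change of 0.016 ± 0.97 (SE), with a 95% interval of −2.17 to 2.20 (adjusted p = 0.998, edgeR). Without in vivo replicate 3 it was 0.93 ± 0.99 (adjusted p = 0.735). Snora47, a small nucleolar RNA gene in the same exon sequence, had 0 counts in each library.

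Compared per kilobase of exon, the genes fell into steps. Khdc3 had a median of 147 CPM per kilobase over the 6 libraries (range 57.3 to 235) and Ooep 24.7 (16.4 to 29.8), and Khdc3 was above Ooep in 6 of 6 libraries with no overlap. Ooep was in turn above Tle6, at a median of 1.49 CPM per kilobase (0.733 to 1.96), in 6 of 6 libraries. Below these, the order was Nlrp4f at 0.701, Zbed3 at 0.375, Padi6 at 0.0620, Nlrp5 at 0.0441 and Nlrp2 at 0 CPM per kilobase. From Tle6 down, the ranges of neighbours overlapped, so their order is not set by these libraries. Padi6 was taken over the 2333 bases on chromosome 4 alone. The length of Khdc3, 4888 bases, joins the exons of all its RefSeq transcripts, which lowers its value per kilobase where shorter transcripts prevail.

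**Figure D2:**
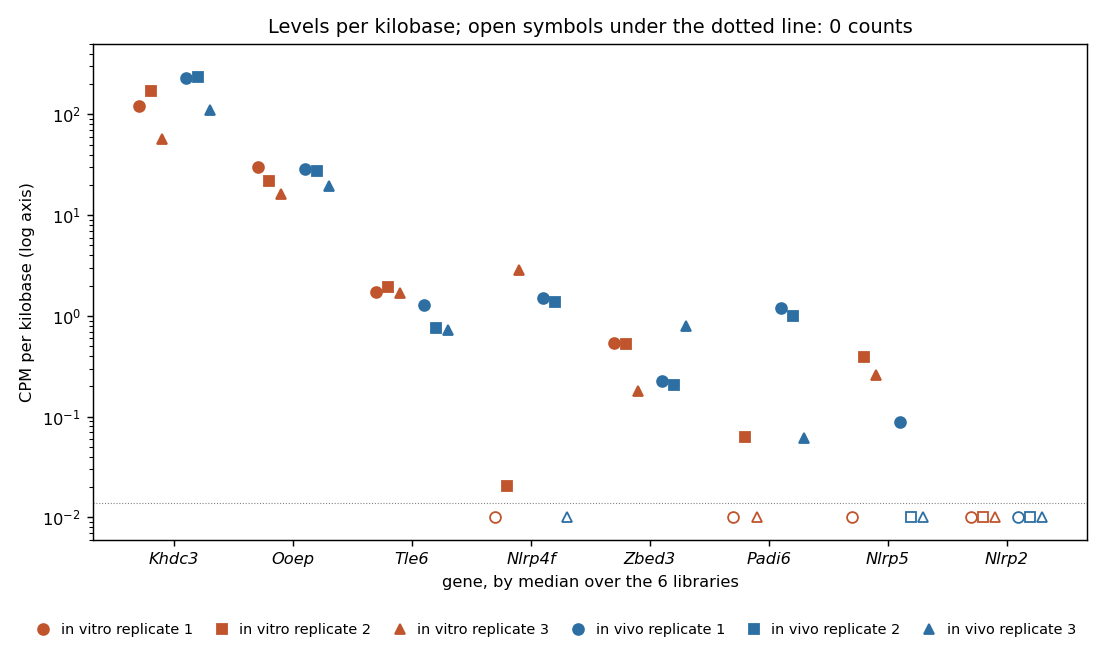
Levels of the 8 genes as CPM per kilobase of exon on a log axis, ordered by the median over the 6 libraries, with open symbols under the dotted line for libraries with 0 counts. Khdc3 and Ooep stand above all others in each library, and the ranges of the other 6 genes run into one another.

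Read against all genes, the complex showed no difference between cultured and in vivo embryos that passed. Of the 8 genes, 5 were tested, with 0 called at an adjusted p below 0.05, where edgeR called 0% of 14301 genes. In this edgeR fit none of the 5 had an unadjusted p below 0.05, where 10.2% of all tested genes did (5.11% higher and 5.08% lower in vitro). DESeq2 called 3% and limma-voom 0.804% of the genes they tested, and neither called a gene of the complex. For Nlrp4f, DESeq2 gave no p-value. The groups did not overlap for 1 of the 5, Tle6, which was higher in vitro, against 9.27% of tested genes higher and 10% lower in vitro without overlap. Of the 5, 3 had a negative log2 fold change (Khdc3, Ooep and Nlrp4f), as did 50.2% of all tested genes, and their median was −0.012 beside −0.0058 over all tested genes. Scaling by library totals alone moved that median of all genes to −0.31, and directions given here are relative to TMM scaling.

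**Figure D3:**
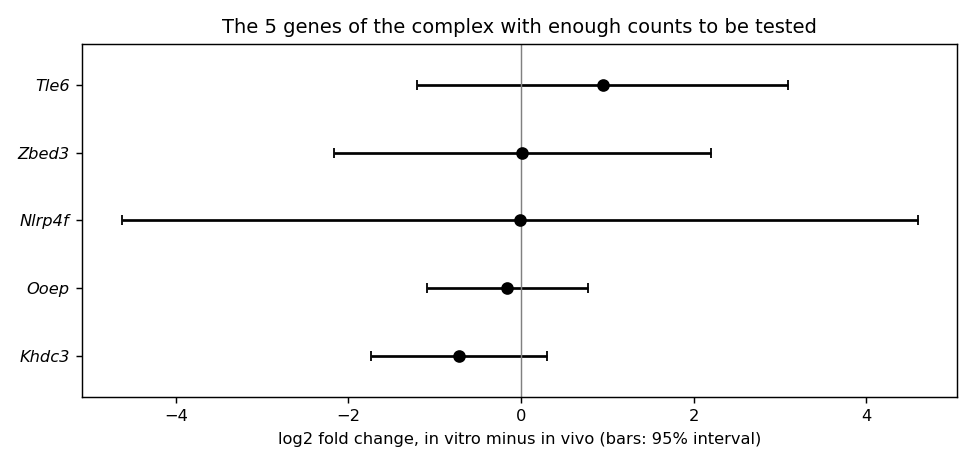
Log2 fold changes of in vitro over in vivo libraries from edgeR's quasi-likelihood fit for the 5 genes with enough counts to be tested; points are estimates and bars 95% intervals. Each interval includes 0, and that of Nlrp4f spans −4.62 to 4.60.

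In vivo replicate 3 stood apart within its group in most of these genes. It had the lowest Khdc3 and Ooep of the group, 2 counts of Padi6 and 0 of Nlrp4f, but the highest Zbed3. In the same library, the trophectoderm list was the lowest of the 6 (933 CPM) and the primitive endoderm list the highest of the in vivo group (1099 CPM, against 406 and 550.4 CPM in the other two). Ribosomal RNA rows took 41.7% of its counts, against 16.7% and 22.2% in in vivo replicates 1 and 2 and 35.8% to 40.4% in vitro. In vivo replicate 3 was thus nearer to the in vitro libraries in this share. The part of these lists and of ribosomal RNA in the values of the complex was not tested.

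Genes with the most similar profile were sought among 8195 tested genes (8196 for Tle6, Zbed3 and Nlrp4f) with an assigned symbol and at least 5 CPM, by the root mean square difference of centred log2 CPM over the 6 libraries. Nearest to Khdc3 were Mboat7 (0.086), Osbpl7 (0.12) and Atg4b (0.14). Nearest to Ooep were Nsmce4a (0.070), Trappc2l (0.070) and Polr2e (0.11). Among genes of the complex, Ooep came 405th in likeness to Khdc3 (0.50) and Tle6 stood at 1.01 from it. For Tle6 the nearest were Wwtr1 (0.14), Cndp2 (0.14) and Anln (0.15), for Zbed3 Aven (0.10), Gtf3c1 (0.17) and Zzz3 (0.19), and for Nlrp4f Rpain (0.95), Zfp583 (1.12) and Alox12 (1.13). With so many candidates and 6 libraries, close profiles are found for nearly any gene, and these are given as a description.

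Relatives of the complex genes in the same families were read next. Of 10 other oocyte NLRP genes, 6 had 0 counts in all libraries and 1, Nlrp4c, was tested. Nlrp4c had 20.5, 4.10 and 12.6 CPM in in vitro replicates 1 to 3, against 27.0, 41.3 and 21.9 CPM in in vivo replicates 1 to 3. Each in vitro library lay below each in vivo library. Its log2 fold change was −1.29 ± 0.62 (SE) and did not pass (adjusted p = 0.523, edgeR). Transcripts of 7 other genes match Nlrp4c at 95% identity or more over at least 100 bases, Nlrp4e among them, so its counts may hold reads of copies. Nlrp4e had 0 counts in each in vitro library and 10, 28 and 3 counts in in vivo replicates 1 to 3.

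The KH-domain relatives include Dppa5a, a pluripotency marker that lies 8703 bases from Ooep on chromosome 9 and on the same strand. Dppa5a had 849, 1064 and 828 CPM in in vitro replicates 1 to 3, against 1317, 1288 and 1113 CPM in in vivo replicates 1 to 3. Dppa5a did not overlap between the groups, unlike its neighbour Ooep, but did not pass (log2 fold change −0.44 ± 0.27, adjusted p = 0.618, edgeR). The Khdc1 genes on chromosome 1 overlapped between the groups. Khdc1a was at 15.7 ± 21.4 CPM in vitro and 10.3 ± 1.57 CPM in vivo (SD, n = 3 each), with 40.2 CPM in in vitro replicate 2 alone. Khdc1b was at 2.35 ± 3.21 CPM in vitro and 1.66 ± 1.44 CPM in vivo, and Khdc1c at 0.878 ± 1.52 CPM in vitro and 2.57 ± 1.82 CPM in vivo. All 4 relatives were tested. The log2 fold change was above 0 for 2 and below 0 for 2 (median 0.040, and −0.29 with library totals alone).

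Paralogs of Padi6, Tle6 and Zbed3 had mostly positive log2 fold changes, in vitro over in vivo. Of 12 such genes, 7 were tested. Their log2 fold change was above 0 for 6 and below 0 for 1, and the median was 0.66 beside −0.0058 over all tested genes. With library totals alone it was above 0 for 5 and below 0 for 2 (median 0.49, beside −0.31 over all tested genes). None passed, and 2 of the 7 had an unadjusted p below 0.05 (edgeR), against 10.2% of all tested genes. The groups did not overlap for 3 of the 7, all higher in vitro, against 9.27% of all tested genes. Tle3, a Groucho co-repressor, was at 39.1 ± 20.6 CPM in vitro and 11.7 ± 2.46 CPM in vivo (log2 fold change 1.74 ± 0.52, adjusted p = 0.362, edgeR). Tle4, of the same family, was at 92.8 ± 14.6 CPM in vitro and 44.2 ± 9.26 CPM in vivo (1.07 ± 0.33, adjusted p = 0.374). Zbed4 was at 39.2 ± 13.6 CPM in vitro and 21.7 ± 1.35 CPM in vivo, also without overlap. Zbed5, the single paralog with a negative value, had a log2 fold change of −0.68 ± 0.63. The genes Padi1 to Padi4 were below the filter on low counts, as was Tle2.

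Among 12 genes for partners of the complex in the table, 10 were tested. The log2 fold change was above 0 for 7 and below 0 for 3 (median 0.24), but above 0 for 4 and below 0 for 6 with library totals alone (median −0.21). None passed, and 2 of the 10 had an unadjusted p below 0.05 (edgeR), against 10.2% of all tested genes. Without overlap, 1 was higher and 1 lower in vitro, against 9.27% and 10% of all tested genes. Cfl1, which encodes cofilin, the actin-severing protein that the complex acts on in mouse eggs, had 533, 491 and 533 CPM in in vitro replicates 1 to 3, against 896, 978 and 818 CPM in in vivo replicates 1 to 3. Each in vitro library lay below each in vivo library, with a log2 fold change of −0.79 ± 0.26 (SE) and an adjusted p of 0.398 (edgeR). Myh9, the heavy chain of a non-muscle myosin, was at 244 ± 172 CPM in vitro and 116 ± 3.76 CPM in vivo, with the groups overlapping and the highest value, 439.7 CPM, in in vitro replicate 3. Fbxw11, a subunit of ubiquitin ligases, was at 70.6 ± 19.3 CPM in vitro and 39.4 ± 11.5 CPM in vivo, without overlap (adjusted p = 0.495). Skp1, another ligase subunit, was at 89.6 ± 33.8 CPM in vitro and 122 ± 25.1 CPM in vivo, and its groups overlapped.

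**Figure D4:**
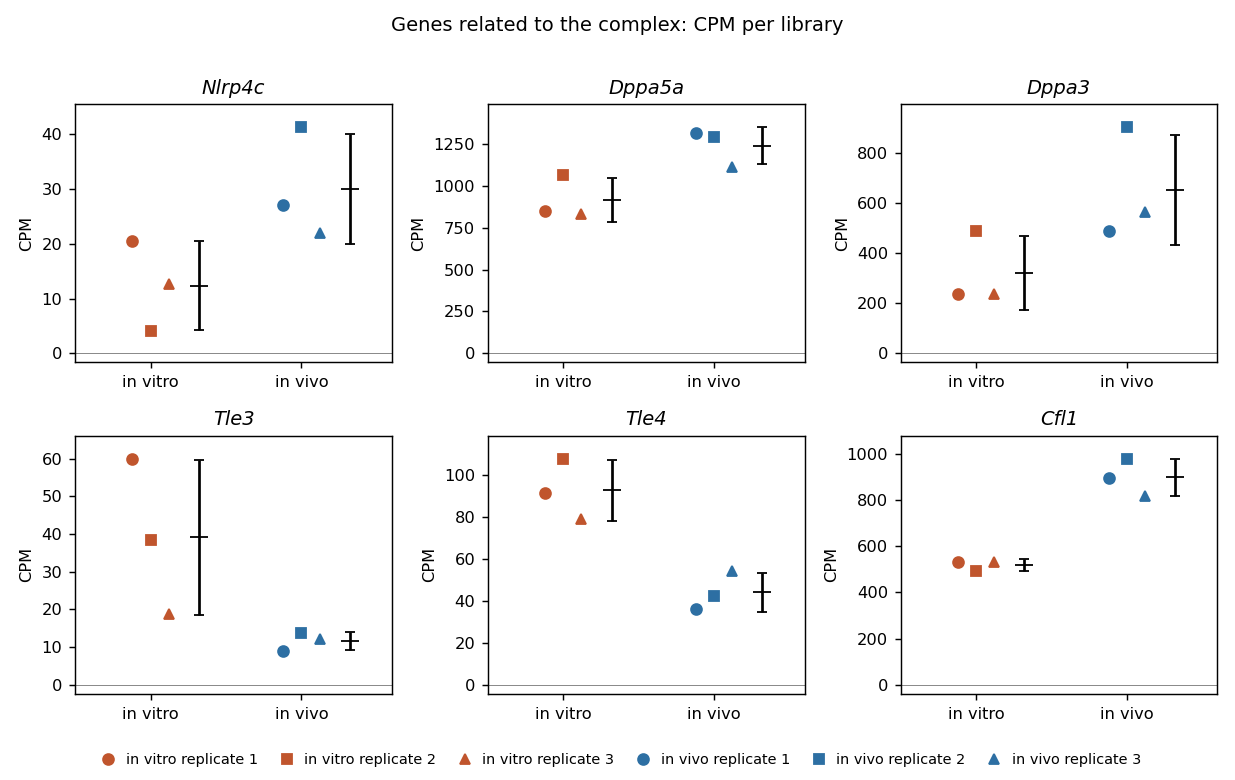
CPM on TMM-scaled totals in each library for genes related to the complex by family, by position or as partners; points are libraries, black bars the mean ± SD of 3 libraries, and axes are linear and differ between panels. Tle3 and Tle4 lie higher and Cfl1, Dppa5a and Nlrp4c lower in each in vitro library than in each in vivo library, and none passed the test.

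Other maternal effect genes gave a mixed picture. Of 20 such genes, 15 were tested. The log2 fold change was above 0 for 6 and below 0 for 9 (median −0.060), and none was called. Dppa3, also called Stella, protects maternal DNA methylation after fertilization in the mouse. Its level was 321 ± 147 CPM in vitro and 653 ± 221 CPM in vivo, and the groups overlapped (log2 fold change −1.02 ± 0.40, adjusted p = 0.440, edgeR). Dicer1, whose protein cuts longer RNAs into small RNAs, was at 20.3 ± 7.69 CPM in vitro and 6.75 ± 1.40 CPM in vivo, without overlap (1.59 ± 0.57, adjusted p = 0.418).

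Genes that mark the oocyte itself summed to 33.2, 25.9 and 28.4 CPM in in vitro replicates 1 to 3, against 9.53, 11.2 and 109.5 CPM in in vivo replicates 1 to 3. The highest sum, in in vivo replicate 3, was mostly Mos, a kinase of the maturing egg, which had 0 counts in each in vitro library and 13, 5 and 1325 counts in in vivo replicates 1 to 3. In that library Padi6 had 2 counts and Nlrp4f 0. The largest part of the in vitro sums was Dazl in replicate 1, Ybx2 in replicate 2 (9.37 CPM) and Kit in replicate 3 (13.7 CPM). Next came E330034G19Rik in replicate 1 (8.04 CPM), Ddx4 in replicate 2 (6.37 CPM) and Dazl in replicate 3 (9.24 CPM). Kit, Ybx2 and E330034G19Rik overlapped between the groups. Whether the in vitro sums came from oocyte RNA was not tested. Of 31 genes of this list in the table, 8 had no counts. Of these 31, edgeR tested 4 (3 above 0 and 1 below 0) and called 0. DESeq2 called 2, Ddx4 and Dazl, where it called 3% of all genes it tested. Zp3, a zona pellucida gene, had 0, 19 and 0 counts in in vitro replicates 1 to 3, against 26, 46 and 63 counts in in vivo replicates 1 to 3. The other zona genes of the list, Zp1 and Zp2, went the other way, on few counts that edgeR's filter removed. Zp2 had 1, 11 and 5 counts in vitro against 0, 0 and 1 in vivo. Zp1 had 0, 0 and 9 counts in vitro and 0 in each in vivo library. Ddx4, a germ cell helicase, was at 3.82 ± 2.28 CPM in vitro and 0.0781 ± 0.135 CPM in vivo (adjusted p = 0.396, edgeR, and 0.0159, DESeq2). Dazl, an RNA-binding gene of germ cells that edgeR's filter removed, had 103, 7 and 71 counts in in vitro replicates 1 to 3, against 2, 0 and 0 counts in in vivo replicates 1 to 3 (adjusted p = 0.000795, DESeq2). Of 17 genes of the 2-cell stage, none passed edgeR's filter. DESeq2 called 1 of them, Tdpoz2, again beside 3% of all genes it tested. Tdpoz2 had 6, 3 and 39 counts in in vitro replicates 1 to 3 and 0 in each in vivo library (adjusted p = 0.0417, DESeq2). The summed level of the 17 genes was 2.71 to 7.16 CPM in vitro and 1.09 to 9.31 CPM in vivo.

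Of 12 cumulus cell markers, 6 had 0 counts in all libraries, and their sum was 1.22 to 5.56 CPM in vitro and 8.12 to 15.0 CPM in vivo. One gene, Amhr2, carried most of the in vivo sum, at 0.512 ± 0.887 CPM in vitro and 9.22 ± 3.12 CPM in vivo (adjusted p = 0.429, edgeR). Star overlapped between the groups, Tnfaip6, Inha, Foxl2 and Cyp11a1 had their few counts in in vitro libraries, and Has2, Ptx3, Amh, Inhba, Cyp19a1 and Fshr were at 0. The part of such cells in the counts of Padi6 and the NLR genes was not tested. The oviduct and uterus list summed to 11.8 to 51.4 CPM in vitro and 12.5 to 48.3 CPM in vivo. Of its 3 tested genes, 1 had a log2 fold change above 0, Wfdc2, at 27.2 ± 16.2 CPM in vitro and 13.1 ± 10.3 CPM in vivo. Krt7 and Muc1 were below 0. Muc1 was at 0.98 ± 1.43 CPM in vitro and 10.1 ± 5.38 CPM in vivo, without overlap (adjusted p = 0.440, edgeR). Blood markers summed to at most 3.64 CPM in vitro and 7.37 CPM in vivo, and sperm markers to at most 0.350 CPM in vitro and 0.399 CPM in vivo.

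Markers of the blastocyst lineages were read in the same libraries. All 12 primitive endoderm markers had a positive log2 fold change (median 0.99), and 10 of 12 trophectoderm markers did (median 0.65), against 5 of 12 epiblast markers (median −0.10). Over all tested genes, 50.2% had a negative one. edgeR called none of them. DESeq2 and limma-voom each called 3 primitive endoderm markers, Sox7, Foxa2 and Lama1, and 1 trophectoderm marker, Id2, all higher in vitro. Their adjusted p was 4.53e-07, 2.65e-06, 0.00143 and 0.00521 with DESeq2, and 0.0392, 0.0491, 0.0381 and 0.0397 with limma-voom, in that order. The primitive endoderm list summed to 797 to 1979 CPM in vitro and 406 to 1099 CPM in vivo, with overlap. The part of these lineage levels in the values of Khdc3 was not tested.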

How the data were processed

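RNA was taken from mouse blastocysts by microextraction and made into libraries with a transposase-based kit, per the labels' protocols. The authors deposited raw counts per gene for 49993 genes. FastQC 0.11.2 and DESeq2 are named in the submitters' processing notes, which also give the build GRCm39. For the aligner, the counter and its use of strand, nothing is stated in the labels or notes. Coordinates in the deposited count table equal RefSeq GRCm38.p6 for each of 49626 genes compared, so GRCm38 is used.

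Libraries were grouped by their titles. Counts were analysed with edgeR 4.0.16 in R 4.3.3: a filter on low counts with a minimum count of 10 (14301 genes kept), TMM scaling and the quasi-likelihood test with robust moderation, p-values being adjusted over all genes tested. The fit was tested on simulated data. Totals ran from 6918288 to 17643429 counts, so that 3 counts are 0.215 to 0.525 CPM. Wilson and exact intervals and these floors cover counting error only, since PCR copies cannot be told from molecules. Alternatives were other scalings and filters, each library left out, a replicate block, DESeq2 1.42.0 and limma 3.58.1. Transcripts were compared by blastn 2.17.0 in GENCODE M21 (at least 95% identity over 100 bases).

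All 8 genes of the complex are reported. From each of 14 lists (189 symbols, 7 of them not in the table), the text names up to 4 genes. These have the smallest unadjusted p and a mean of at least 1 CPM. Exceptions are genes given beside a related result, which were named after their values were seen. They are Nlrp4e, Tle2, Padi1 to Padi4, Mos, Dazl, Zp1, Zp2, Figla, E330034G19Rik, Tdpoz2 and the cumulus markers other than Amhr2 and Star. The genes and lists were chosen with earlier results of these data known.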

Additional observations from a re-analysis of the deposited data

How the results depend on the processing

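No gene of the complex was called under any of the 16 alternative fits, while genes called overall numbered 0 with edgeR, 391 without a filter on low counts, 473 with DESeq2, 115 with limma-voom and 3 under the newer form of edgeR's quasi-likelihood fit. Khdc3 stayed negative in all 16 (−0.39 to −1.12 with a library left out) and Tle6 positive in the 15 that tested it. Nlrp4f changed sign to 0.017 with DESeq2 size factors and 0.014 with DESeq2, which gave it no p-value. It ran from −5.90 to 0.57 with a library left out. Zbed3 changed sign to −0.053 with library totals alone and −0.0044 without a filter, and ran from −0.31 to 0.93 with a library left out. Ooep ran from −0.40 to 0.030 with a library left out, the positive value being without in vitro replicate 3, and was −0.54 with library totals alone. With limma-voom, Nlrp4f was −3.86 and Zbed3 0.88. The cause was not tested. Khdc3 was −0.95 ± 0.32 (SE) with limma-voom, with an unadjusted p of 0.0131 and an adjusted p of 0.152. In that fit, 2762 of 14301 genes had an unadjusted p below 0.05. Without ribosomal RNA rows the summed level was 914 CPM in vitro and 1544 CPM in vivo, and per kilobase 143 in vitro and 221 in vivo.

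With a replicate block, edgeR called 0 genes and 0 genes of the complex. Khdc3 was then −0.78 (edgeR, unadjusted p = 0.0304, adjusted p = 0.595), Nlrp4f −4.00, Zbed3 0.26, Ooep −0.18 and Tle6 1.00. An unadjusted p below 0.05 was found with the block for 1161 of 14301 genes. Deviations of libraries with the same number correlated at −0.099, 0.096 and −0.044, and those of libraries with unlike numbers at −0.090 to 0.116. No pairing by number was seen, but so few libraries cannot show that the samples are unpaired.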
